A study of Mus musculus with 2 samples.

Results

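The genes described here encode heat shock proteins and J-domain chaperones. They are the entries of the deposited gene table whose symbol starts with Hsp90, with Hspa, Hspb, Hspd, Hspe or Hsph and a number, or with Dnaja, Dnajb or Dnajc and a number, and Hspa5 was left out. The rule used no measured value and gave 66 of 16218 genes. Polyadenylated RNA was sequenced from bone marrow-derived macrophages, which are cells grown from mouse marrow with macrophage growth factor. The TKO library came from C57BL/6J mice that were mir-106b~25-/- and mir-106a~363-/-, and in which mir-17~92 was flox/flox with Lyz2-Cre, a genotype designed to remove 3 related microRNA clusters. The WT library came from C57BL/6J mice carrying Lyz2-Cre alone, the Cre that both groups shared and that acts in myeloid cells. Both cultures were grown for 5 days and then received 10 ng/ml lipopolysaccharide (LPS), a bacterial cell wall component, for 3 h. The sources used here do not give ages or the number of animals behind each culture, and no library without LPS was analysed here.

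Each genotype had 1 library, with 10836855 counts in TKO and 10764519 in WT, so there is no replicate check and no test. "Higher" and "lower" describe these 2 libraries. Ratios below are TKO over WT in counts per 1000000 (CPM), each followed by its 95% counting interval, which covers counting error only. Of the targeted loci, the mir-17~92 host transcript Mir17hg had 16 counts in TKO and 16 in WT, which does not check the labels, because a count over a host gene does not show whether the microRNA part was removed. Mcm7, the host gene of mir-106b~25, had 496 counts in TKO and 608 in WT. All 8 macrophage markers looked at were measured, and they summed to 7359 CPM in TKO and 7171 CPM in WT. Fibroblast and stromal markers summed to 206 CPM in TKO and 508 CPM in WT, and 8 of 11 measured ones, such as Col1a1 and Postn, were at least 1.5-fold lower in TKO. The other measured ones, Pdgfra (30 and 32 counts in TKO and WT), Pdgfrb (510 and 478) and Thy1 (39 and 33), had intervals that included equality. Neutrophil markers summed to 5.91 and 6.69 CPM, T cell markers to 7.66 and 8.55 CPM, B cell markers to 1.02 and 1.39 CPM and muscle markers to 0.554 and 1.21 CPM in TKO and WT. In TKO no listed marker with an entry was at 0, and in WT Ly6g and Actc1 were at 0.

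Heat shock proteins are molecular chaperones: they bind unfolded protein chains and let them fold, or hand them on for degradation. HSP70 proteins do so in cycles of ATP hydrolysis. J-domain proteins (DNAJA, DNAJB and DNAJC) deliver clients and start the hydrolysis, and HSP110 proteins release the nucleotide afterwards. HSP90 matures signalling kinases and receptors, the mitochondrial chaperonin folds imported proteins in a closed chamber, and small HSPs hold unfolded proteins without ATP. Part of the family is made at all times, and another part is induced by heat shock factor 1 (HSF1). In macrophages the endoplasmic reticulum HSP90, encoded by Hsp90b1, is known for folding Toll-like receptors and integrins.

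Chaperone messenger RNA differed little between the TKO and WT macrophages. Dnajb5 was 1.61-fold higher in TKO, and no other member had a log2 ratio of at least 1.5-fold in either direction with an interval that excluded equality. Of 12 chaperones of the endoplasmic reticulum, 6 had intervals above equality and none below, with ratios of at most 1.24. That list was chosen with earlier results of these data known, so its counts are a description only. Over all measured genes the interval lay above equality for 14.1% and below it for 20.2%. The genes of the heat-inducible list, which also holds the constitutive Hspa8 and Hsp90ab1, lay on both sides of equality. The 9 members with a 3' UTR match to the miR-17 seed, which microRNAs of all 3 clusters carry, had a median log2 ratio of 0.31. For the members without one it was -0.03. When only members with at least 10 CPM were kept, however, the medians were 0.04 with a match and 0.02 without.

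Of the 66 members, 54 were measured, meaning that their mean CPM in the TKO and WT libraries was at least 1, as were 11662 of all genes. A gene was called when its log2 ratio, taken after adding 0.5 CPM to each side, was at least 1.5-fold in size and its counting interval excluded equality. By that rule 1 of 54 members (1.85%) was higher in TKO, where the background over all measured genes was 2.83%. None was lower, where the background was 5.26%. At 2-fold the counts were 0 higher and 0 lower, against backgrounds of 1.02% and 1.68%. Of the 43 members with a mean of at least 10 CPM, 1 was higher at 1.5-fold (2.33%, background 2.12%) and 0 lower (background 3.11%). The shares called are near or below those of all genes. Looking only at counting error, the interval lay above equality for 15 members (27.8%, background 14.1%) and below it for 6 (11.1%, background 20.2%). These shares rest on scaling by library totals and were not recomputed under other scalings. The median of mean CPM was 30.02 over the members and 23.2 over all measured genes, and its part in these shares was not tested. The median log2 ratio was -0.0046 over the members and -0.04 over all measured genes. For 37 of the 54 members (68.5%) the log2 ratio was within 1.2-fold of equality, compared with 65.1% of all measured genes. The authors' deposited table holds p-values of their own, whose test the sources used here do not name. At an adjusted value of at most 0.05 in the authors' deposited table, 12 of 66 members were higher (18.2%, background 7.71%) and 2 lower (3.03%, background 10.8%).

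**Figure D1:**
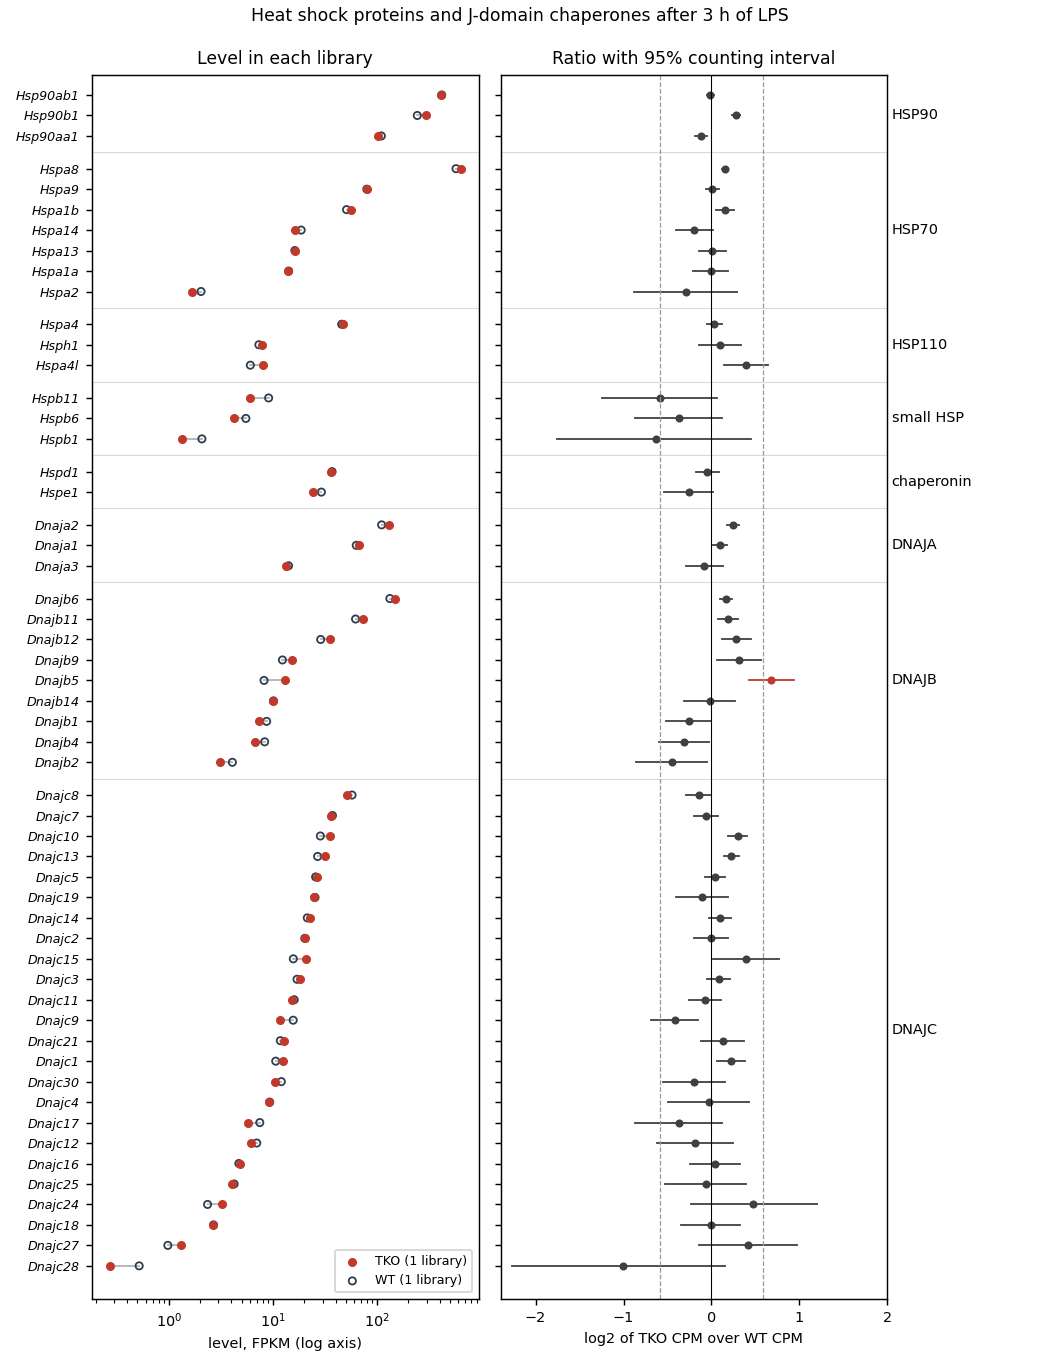
Left, level of each of the 54 measured members in FPKM (fragments per kilobase of transcript and per 1000000 fragments, log axis), filled for the TKO library and open for the WT library. Right, the log2 ratio of TKO CPM over WT CPM with its 95% counting interval. Dashed lines mark 1.5-fold, classes are separated by grey lines, and Dnajb5 is the member in red.

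Levels between genes were compared in FPKM, which corrects for length. The order of levels was nearly the same in both libraries. Hspa8, the constitutive cytosolic HSP70, was first, with 638.91 FPKM in TKO and 572.27 in WT. Hsp90ab1, the constitutive cytosolic HSP90, was the second, and Hsp90b1 the third. Behind them came Dnajb6, Dnaja2 and Hsp90aa1, the last of the 6 members with at least 100 FPKM in each library. These 6 held 64.4% of the summed FPKM of all members in TKO and 63.1% in WT. By class, the HSP70 genes held 30.7% in TKO and 30.04% in WT, and the HSP90 genes 30.2% and 30.6%. The DNAJC genes, the largest class with 25 members, held 14.4% in TKO and 15.2% in WT, and the 7 small HSP genes only 0.486% and 0.701%. All members together took 0.686% of the TKO counts and 0.639% of the WT counts, and their summed ratio was 1.07 (1.06 to 1.09). The 11 members with a mean of at least 50 FPKM had a summed ratio of 1.08 (1.07 to 1.10).

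**Figure D2:**
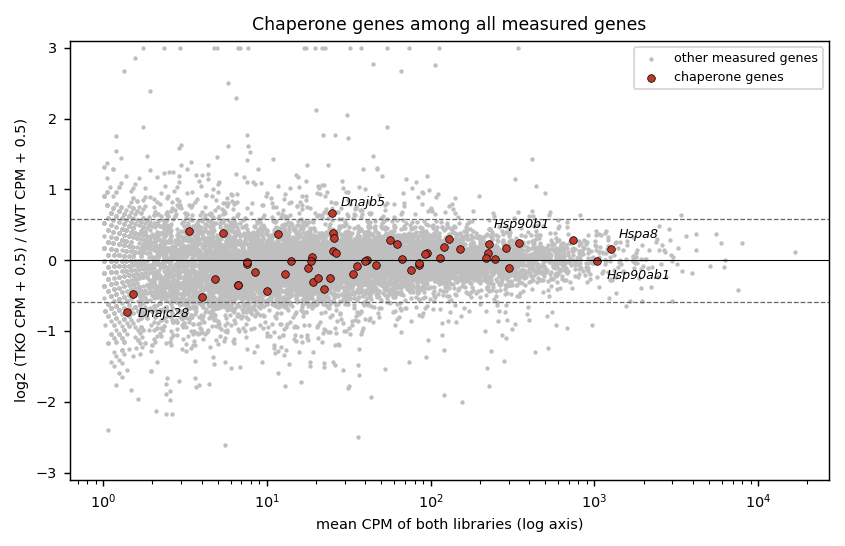
Log2 ratio of TKO over WT (0.5 CPM added to each) against mean CPM on a log axis, for the 54 measured members in red and the other measured genes in grey. Dashed lines mark 1.5-fold, and genes beyond 3 on the vertical axis are drawn at 3. The members lie within the cloud of all genes, with Dnajb5 above the upper dashed line and Dnajc28, at 10 and 20 counts in TKO and WT, below the lower one with an interval that includes equality.

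The HSP90 genes did not move together. Hsp90b1 (gene 22027, chromosome 10, 86690209 to 86705509, GRCm38/mm10) had 8870 counts in TKO and 7244 in WT, a ratio of 1.22 (1.18 to 1.25). Exons of other annotated genes overlap it, one of them, 1810014B01Rik, on the opposite strand, so its count may hold reads of these. Among all members, 26 have such exon overlaps, for 23 of them with a gene on the opposite strand. The same limit holds for their counts, though it is not repeated at each gene. Hsp90aa1, the heat-inducible cytosolic form (gene 15519, chromosome 12, 110690605 to 110702728), had 3142 counts in TKO and 3381 in WT, a ratio of 0.923 (0.879 to 0.969). Hsp90ab1 had 11248 counts in TKO and 11277 in WT, a ratio of 0.991 (0.965 to 1.02). Of the longest Hsp90aa1 transcript, 47.5% of the stretches of 100 bases recur in annotated pseudogenes, so the Hsp90aa1 count is uncertain. For Hsp90ab1 this share was 0%. None of the 3 genes met the 1.5-fold rule, and the intervals lay above equality for Hsp90b1, below it for Hsp90aa1 and across it for Hsp90ab1.

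Among the HSP70 genes, 7 of 10 were measured, with a median log2 ratio of 0.01 and a range of -0.26 to 0.16. Hspa8 (gene 15481, chromosome 9, 40800984 to 40810087) had 14550 counts in TKO and 12950 in WT, a ratio of 1.12 (1.09 to 1.14). Of its longest annotated transcript, 31.6% of the stretches of 100 bases also occur in other annotated genes, mainly processed copies, so its reads could likewise have been divided. Hspa9, the mitochondrial HSP70, had 2683 counts in TKO and 2643 in WT, a ratio of 1.01 (0.955 to 1.06). Hspa13, an HSP70 of the endoplasmic reticulum, lay at 729 and 719 counts in TKO and WT, and Hspa14, a ribosome-associated HSP70, at 339 and 385. Hspa2, known for its role in the testis, was low, at 1.67 FPKM in TKO and 2.04 in WT.

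The heat-inducible HSP70 genes Hspa1a and Hspa1b lie beside each other on chromosome 17 (34969190 to 34972156 and 34956436 to 34959238), between the class I genes H2-K1 and H2-D1 of the major histocompatibility complex. Hspa1b had 1735 counts in TKO and 1546 in WT, a ratio of 1.11 (1.04 to 1.19). Hspa1a had 428 counts in TKO and 428 in WT, a ratio of 0.993 (0.867 to 1.14). The genes are near-identical: 48.6% of the 100-base stretches of Hspa1a and 49.9% of those of Hspa1b recur in another gene, in each case the other of the pair and Hspa1l. Single values are therefore uncertain, and the pair was also summed, which gave 2163 counts in TKO and 1974 in WT and a ratio of 1.09 (1.02 to 1.16). Their neighbour Hspa1l had 5 counts in TKO and 13 in WT, below the filter.

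All 3 HSP110 genes were measured and had ratios above equality, by small amounts. Hspa4l, at 311 counts in TKO and 235 in WT, had the largest ratio of the class, 1.31 (1.11 to 1.56). Hsph1, the heat-inducible member, had 297 counts in TKO and 276 in WT (1.07, 0.904 to 1.26), and Hspa4, the most abundant, 2380 in TKO and 2311 in WT (1.02, 0.966 to 1.08). The intervals of both included equality.

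Both chaperonin genes had ratios below equality with intervals that included it. Hspd1, which encodes HSP60, had 911 counts in TKO and 935 in WT, a ratio of 0.968 (0.882 to 1.06). Hspe1, which encodes its lid HSP10, had 202 counts in TKO and 240 in WT, a ratio of 0.836 (0.690 to 1.01). Of the Hspd1 transcript, 26.9% of the 100-base stretches recur in other annotated genes, and its exons overlap those of Hspe1 on the opposite strand. The genes share a promoter on chromosome 1: they run in opposite directions, with RefSeq start sites 216 bases apart. Between the starts lies a run of alternating GAA and TTC units, the form bound by HSF1. The stretch is given below as read on each gene's own strand (GRCm38.p6, chr1:55088053-55088082), with the bases of the motif matches in capitals, because it is the sequence that both chaperonin genes have in common.
Hspd1, minus strand: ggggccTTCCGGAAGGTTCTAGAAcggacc
Hspe1, plus strand: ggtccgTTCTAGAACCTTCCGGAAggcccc
These are the same bases read from either side. The capitals begin 144 bases before the Hspd1 start and 89 bases before that of Hspe1.

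The motif was searched as GAA, any 2 bases, TTC, any 2 bases and GAA, and as its reverse complement TTC, any 2 bases, GAA, any 2 bases and TTC, in RefSeq windows from 250 bases before to 50 bases after each start. Overlapping matches were merged. It was found for 4 of the 54 members with a window (7.41%) and for 0.627% of the 12600 genes of the table with one. Besides the chaperonin pair these were Dnajb6 and Hsph1, whose matches are shown with their surroundings, capitals again marking the motif.
Dnajb6, chr5:29735844-29735873, plus strand: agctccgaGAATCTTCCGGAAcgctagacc
Hsph1, chr5:149636279-149636308, minus strand: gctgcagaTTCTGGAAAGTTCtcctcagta
The Dnajb6 match begins 46 bases before one of its annotated starts, and the Hsph1 match begins 15 bases after one of its starts and 36 bases after the other. The 4 genes hold 3 separate stretches, since the chaperonin pair shares its own. The 4 genes with a match had a median log2 ratio of 0.02, and the 39 measured members with a window but no match 0.03. The letters are not in the windows of Hspa1a, Hspa1b, Dnajb1 or Hspb1, which says only that this strict form is absent there.

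The heat-inducible core list held Hspa1a, Hspa1b, Hsph1, Hsp90aa1, Dnajb1, Dnaja1, Hspb1, Hspd1, Hspe1 and Hspa4l. It also held Hspa8 and Hsp90ab1, named above as constitutive, and the counts given here include them. In this list 12 of 12 genes were measured, 5 had log2 ratios above 0 and 7 below, and the median was -0.01. This share above 0, 41.7%, is near the 42.6% of all measured genes. None was called. The interval lay above equality for 4 of the 12, Hspa8, Hspa1b, Dnaja1 and Hspa4l, where the background was 14.1%. It lay below equality for 2, Hsp90aa1 and Dnajb1, where the background was 20.2%. The part of abundance in these interval counts was not tested. Dnajb1, the inducible HSP40 that works with HSP70, had 239 counts in TKO and 284 in WT, a ratio of 0.836 (0.701 to 0.996). The factor gene Hsf1 was at 314 counts in TKO and 312 in WT, a ratio of 1.00 (0.852 to 1.17). Hsf2, a second heat shock factor, had 152 counts in TKO and 179 in WT (0.843, 0.675 to 1.05), and Hsbp1, whose product binds HSF1, had 616 and 711 (0.861, 0.771 to 0.960).

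The small HSP genes were low in both libraries. Only 3 of 7 were measured, and the other 4, Hspb2, Hspb7, Hspb8 and Hspb9, summed to 23 counts in TKO and 16 in WT. Hspb1, which encodes the heat-inducible HSP25, had 13 counts in TKO and 20 in WT, a ratio of 0.646 (0.295 to 1.36), and 42.7% of its 100-base stretches recur in an annotated pseudogene. Hspb6 had 63 counts in TKO and 81 in WT, a ratio of 0.773 (0.547 to 1.09). Hspb11, which encodes an intraflagellar transport protein in spite of its name, had 35 counts in TKO and 52 in WT, a ratio of 0.669 (0.423 to 1.05). All 3 ratios were below equality, and a difference was not detectable at this depth for any of them. The class sum was 134 counts in TKO and 169 in WT (0.788, 0.623 to 0.994). This sum includes Hspb11, and no ratio was computed without it. Most measured fibroblast and stromal markers, but not all, were also lower in TKO, as given above, and their part in these values was not tested. In bulk RNA, fewer cells of a type and less RNA per cell cannot be told apart.

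Of the DNAJA genes, Dnaja2, a cytosolic partner of HSP70 (gene 56445, chromosome 8, 85537633 to 85555344), had 4050 counts in TKO and 3390 in WT, a ratio of 1.19 (1.13 to 1.24). Dnaja1, the inducible one, had 2506 counts in TKO and 2331 in WT, a ratio of 1.07 (1.01 to 1.13), with 14.8% of its 100-base stretches shared with other genes. Dnaja3, which works in mitochondria, had 376 counts in TKO and 395 in WT, a ratio of 0.946 (0.819 to 1.09). The fourth, Dnaja4, had 7 counts in TKO and 11 in WT and was below the filter.

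The DNAJB class spread from -0.43 to 0.67 on the log2 scale over 9 measured members of 12, with a median of 0.17. Dnajb5 (gene 56323, chromosome 4, 42949814 to 42959425), a relative of Dnajb1, had 333 counts in TKO and 206 in WT, which is 13.2 FPKM in TKO and 8.22 in WT. Its ratio was 1.61 (1.35 to 1.92), and the lower bound did not reach 1.5-fold. In the authors' deposited table its adjusted value was 1.03e-06. Next to the threshold, Hspb11 (log2 ratio -0.52) and Hspb1 (-0.47) lay just inside 1.5-fold after 0.5 CPM was added, and Dnajc28 (-0.73) beyond it but with an interval of 0.208 to 1.11. Dnajb6, known for suppressing the aggregation of polyglutamine proteins, had 3328 counts in TKO and 2946 in WT, a ratio of 1.12 (1.07 to 1.18), but shared 31.0% of its 100-base stretches with other genes. The intervals of Dnajb2 (92 and 125 counts in TKO and WT) and Dnajb4 (186 and 229 counts) lay below equality, with ratios of 0.731 (0.552 to 0.965) and 0.807 (0.661 to 0.983). So the class contains both the member farthest higher in TKO and several that were lower by smaller amounts.

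Of 12 listed chaperones of the endoplasmic reticulum, all measured, 10 had log2 ratios above 0 (83.3%, against 42.6% of all measured genes) and 2 below. The interval lay above equality for 6, where the background was 14.1%, and below it for 0, where the background was 20.2%. Mean CPM ran from 14.0 for Dnajc18 to 746 for Hsp90b1, for most of the list above the median of 23.2 over all measured genes. The part of abundance in these interval counts was not tested. The median was 0.14, where the 42 other measured members had -0.05 and all measured genes -0.04. None was called, no test of the list was made, and 4 of the 12, Hspa13, Dnajc16, Dnajb14 and Dnajc18, had log2 ratios between -0.02 and 0.04. Because the list was chosen with earlier results of these data known, its counts describe it and are no independent check. The summed ratio was 1.17 (1.14 to 1.2), and 1.12 (1.09 to 1.16) without Hsp90b1, which held much of the count. Dnajc10, a reductase of wrongly formed disulfide bonds, had 1553 counts in TKO and 1255 in WT, a ratio of 1.23 (1.14 to 1.33). Dnajb9, which helps to turn off the stress sensor IRE1, had 309 counts in TKO and 247 in WT, a ratio of 1.24 (1.05 to 1.47). Dnajb11, a partner of the reticulum HSP70, had 1388 counts in TKO and 1212 in WT (1.14, 1.05 to 1.23), and the membrane-bound Dnajb12 had 676 and 551 (1.22, 1.09 to 1.37). Dnajc1, a reticulum membrane protein, had 724 counts in TKO and 615 in WT (1.17, 1.05 to 1.30). Dnajc3, an inhibitor of the kinase PERK, was nearer to equality, at 1025 counts in TKO and 961 in WT (1.06, 0.969 to 1.16), and Dnajb14, a relative of Dnajb12, had 200 and 201. Hyou1, the HSP110-like protein of the reticulum, lies outside the symbol rule and had 1664 counts in TKO and 1266 in WT, a ratio of 1.31 (1.21 to 1.41).

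Of 8 listed mitochondrial members, all measured, 2 had log2 ratios above 0 and 6 below, with a median of -0.07, near the -0.04 of all measured genes, and the summed ratio of 0.982 (0.945 to 1.02) included equality. The members above 0 were Hspa9, at 0.01, and Dnajc15. Dnajc15, a J-domain protein of the inner membrane, had 144 counts in TKO and 109 in WT, a ratio of 1.31 (1.02 to 1.70). Dnajc19, a relative of Dnajc15 in the protein import motor, had 187 counts in TKO and 200 in WT. Dnajc11, a protein of the contact sites of the inner and outer membrane, had 488 counts in TKO and 509 in WT. Dnajc30, linked to respiratory complex I, had 130 in TKO and 148 in WT.

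The DNAJC class as a whole had 24 measured members of 25, of which 12 were above and 12 below equality, with a median log2 ratio of -0.0046. Dnajc8, a nuclear protein linked to splicing and the most abundant of the class by FPKM, had 786 counts in TKO and 864 in WT, a ratio of 0.904 (0.819 to 0.996). Dnajc13, which acts on endosomes and recycling, had 2655 counts in TKO and 2251 in WT, a ratio of 1.17 (1.11 to 1.24). Dnajc9, a histone chaperone, had 206 counts in TKO and 273 in WT, a ratio of 0.75 (0.622 to 0.901), the lowest ratio in the class with an interval below equality. Dnajc5, the cysteine string protein of secretory vesicles, had 1260 and 1220 counts in TKO and WT, Dnajc7, a co-chaperone with TPR repeats, 895 and 928, and Dnajc2, a ribosome-associated J-domain protein, 446 and 443. The other 18 measured DNAJC members lay between -0.73 and 0.41 on the log2 scale.

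Below the filter were 12 members, with 0 to 12 counts in TKO and 0 to 13 in WT, and the interval excluded equality for none. Together they made up 0.0646% of the members' counts in TKO and 0.0858% in WT. They include Dnajb3, Dnajb7 and Dnajb13, Hspa12a and Hspa12b, and Dnajc6, the neuronal clathrin-uncoating factor auxilin. Dnajb3 had 3 counts in TKO and 0 in WT, and Dnajb7 had 0 in TKO and 1 in WT, both at or under the floor of 3 counts.

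Co-chaperones and other folding machines were looked at as 6 lists. Of 19 HSP90 co-chaperones, all measured, 3 had log2 ratios above 0 (15.8%, against 42.6% of all measured genes) and 16 below, with a median of -0.09, and none was called. The interval lay below equality for 4 of them, a share close to the background of 20.2%: Stip1 (0.902, 0.858 to 0.949), the adaptor between HSP70 and HSP90, the cyclophilin gene Ppid (0.770, 0.629 to 0.942), and Sgta (0.867, 0.775 to 0.970) and Ttc4 (0.813, 0.677 to 0.977), whose products have TPR repeats. Among 11 measured HSP70 co-chaperones the median was 0.04. The nucleotide exchange factor gene Bag1 had 1709 counts in TKO and 1389 in WT (1.22, 1.14 to 1.31), while Hspbp1 had 169 and 218 (0.770, 0.626 to 0.946). For the 8 subunits of TRiC, the cytosolic chaperonin, the median was -0.05, and Tcp1 had the lowest ratio (0.823, 0.775 to 0.874). The 6 prefoldin genes had a median of 0.21 with both directions present, Pfdn5 at 1.22 (1.11 to 1.35) and Pfdn4 at 0.732 (0.570 to 0.938). Of 7 measured chaperones outside the symbol rule, only Serpinh1 was called: it encodes HSP47, the collagen chaperone, and had 96 counts in TKO and 243 in WT (0.392, 0.307 to 0.499). Most measured stromal markers, collagens among them, were lower in the same library, but Pdgfra, Pdgfrb and Thy1 were near equality. The part of the stromal markers in this value was not tested.

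**Figure D3:**
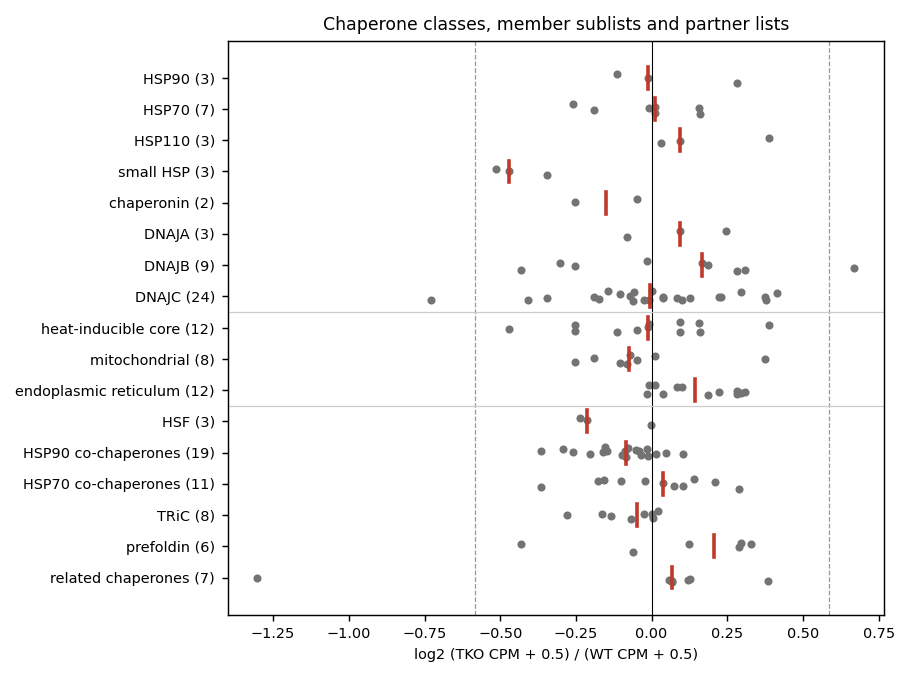
Log2 ratio of TKO over WT (0.5 CPM added to each) of every measured gene, as grey points, in the 8 chaperone classes, 3 sublists of members and 6 partner lists, with the number of genes in brackets. Red bars are medians and dashed lines 1.5-fold. The reticulum sublist has its median at 0.14 and the small HSP class at -0.47, and Serpinh1, among the related chaperones, is the point at -1.30.

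The microRNAs of the 3 targeted clusters for which seed matches were counted fall into 4 groups by seed, the bases 2 to 8 that pair with a target. Mature sequences from RefSeq (GRCm38.p6) are shown for each group, with the seed in capitals, since the matches counted below derive from them.
miR-17-5p: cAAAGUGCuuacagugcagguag
miR-106b-5p: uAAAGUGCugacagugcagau
miR-106a-5p: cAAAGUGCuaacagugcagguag
miR-18a-5p: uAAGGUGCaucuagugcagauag
miR-19b-3p: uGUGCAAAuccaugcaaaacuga
miR-92a-3p: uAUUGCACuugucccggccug
The first 3 come from the 3 different clusters and share the miR-17 seed.

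A match to at least 1 of the 4 seeds was present in the longest annotated 3' UTR of 21 of 54 measured members (38.9%), and of 36.0% of all 11150 measured genes with a 3' UTR. For the miR-17 seed these shares were 16.7% (9 members) and 15.5%. The 9 members with a miR-17 match had a median log2 ratio of 0.31 and the 45 others -0.03, whereas over all genes the medians were 0.01 with a match and -0.05 without. Members with a miR-92 match (7) had a median of 0.22, those with a miR-19 match (10) 0.06 and those with a miR-18 match (5) 0.04. The corresponding medians over all genes with such a match were -0.0065, -0.01 and -0.03. No test was made of these differences, the groups are small, and the 3' UTRs of the 9 members were longer, with a median of 3330 bases against 1035 for the 45 others. The 9 were also less abundant, with a median of 18.6 mean CPM against 46.2. What part length and abundance have in the gap was not tested. With only members of at least 10 CPM, which leaves out Dnajc24 and Dnajc27, the median with a miR-17 match was 0.04. Under the same filter the median without a match was 0.02.

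The 9 members did not act as a group. Log2 ratios were 0.67 for Dnajb5, 0.41 for Dnajc24, an enzyme cofactor of diphthamide synthesis, 0.38 for Dnajc27, which carries a Rab-like GTPase domain, 0.38 for Dnajc15 and 0.31 for Dnajb9. The remaining 4, Dnajc16, Dnajc2, Dnajc18 and Dnajb14, lay between -0.02 and 0.04, although Dnajb14 has 3 matches, the most of any member. The interval lay above equality for Dnajb5, Dnajc15 and Dnajb9, and included it for the other 6. Without Dnajb5 the median of the 8 was 0.17. Of the matches, 3 are printed to show a gene that was higher, a second of that kind and the gene with several matches at equality, each with 15 bases before and 8 after.
Dnajb5, 3' UTR bases 93 to 99 of 1874: gtccactggacactgGCACTTTtctaaaat
Dnajb9, 3' UTR bases 942 to 948 of 1395: tatttctttagttctGCACTTTtccatgtt
Dnajb14, 3' UTR bases 7546 to 7552 of 8088: ctgtaacataggaagGCACTTTtgagtgac
Capitals mark the match to the seed. Dnajb9 also has a match to the miR-19 and to the miR-92 seed, and Dnajb5 to none of the other 3. A match of letters does not show that a microRNA bound there.

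**Figure D4:**
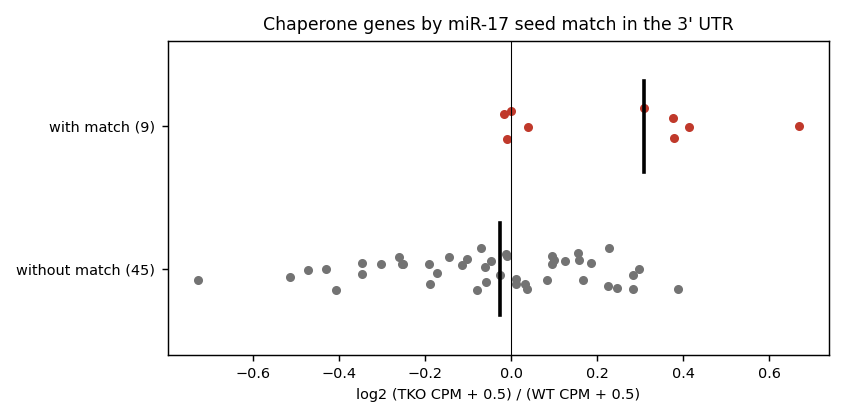
Log2 ratio of TKO over WT (0.5 CPM added to each) for the measured members with a match to the miR-17 seed in the longest annotated 3' UTR (9 genes, red) and without one (45 genes, grey). Black bars are medians, 0.31 and -0.03, and 4 of the 9 red points lie close to 0.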

How the data were processed

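One table of the whole series was used, with 1 library per genotype. Per the submitters' processing notes, HISAT2 2.0.4, Bowtie2 2.2.5, RSEM 1.2.12 and build mm10 were used. The sources used here give neither their roles nor the annotation or the strandedness of counting. The authors deposited estimated counts per gene, fractional where reads were shared, which were rounded here (whole already for 79.4% of genes in TKO and 79.2% in WT). The table also holds the authors' FPKM, with 0.01 written for 0, and a log2 ratio of TKO over WT FPKM, per the file headers. The deposited p-value and adjusted value (a score, since it reaches 1.04) are the authors'. The 1 entry without a symbol (9.23e-06% of TKO counts and 9.29e-06% of WT counts) was left out.

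CPM used library totals, and log2 ratios added 0.5 CPM, which understates differences of low genes. Intervals are exact Clopper-Pearson, conditional binomial, 95%. PCR copies are not independent molecules, so they cover counting error only, and the floor was 3 counts per library (0.277 CPM in TKO and 0.279 CPM in WT). The calculation was tested on simulated data that held counting error and known fold changes only. Variation between animals or cultures was not simulated, so the test says nothing about it. The members and lists were chosen with earlier results of these data known. Named genes were called members, the most abundant of each class, the heat-inducible list, members next to the threshold, small classes in full, called partner genes and HSF genes. Others named, such as those with intervals excluding equality, were chosen after their values were seen. Positions, transcripts and 3' UTRs came from GENCODE M21 (GRCm38, the same assembly as mm10) for all 66 members, matched by gene ID. Alternatives were TMM (edgeR 4.0.16) and median-of-ratios scaling (DESeq2 1.42.0), other pseudocounts, filters and folds, and FPKM. Python 3.11.15, SciPy 1.17.1 and R 4.3.3 were used.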

Additional observations from a re-analysis of the deposited data

How the results depend on the processing

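The count of members at least 1.5-fold higher in TKO was 1 in the main setting and 0 at 2-fold or when the interval bound itself had to reach 1.5-fold. No member was lower under any alternative run. TMM scaling moved the median of all genes by 0.047 on the log2 scale. It turned the HSP90 median to 0.035, against -0.01 in the main setting, so signs of medians this close to 0 are not read. Counts of intervals above or below equality were not recomputed under other scalings. Some upper bounds lay nearer to equality than this shift, such as those of Dnajb1 (0.996), Dnajb4 (0.983) and the small HSP sum (0.994). Whether such intervals exclude equality depends on the scaling. Without the abundance filter the small HSP median was 0.16, since 4 members with few counts then entered, and the DNAJA median was 0.0074. Sublists and seed groups were recomputed the same way as alternatives added after seeing the data: the reticulum median lay between 0.14 and 0.19, and the median with a miR-17 match between 0.04, at a mean of at least 10 CPM, and 0.35, under TMM scaling. No paired analysis was possible because each genotype has 1 library. Genes at few counts, such as the small HSPs, are limited by depth.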
